A study of Mus musculus with 8 samples.

Results

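The 10 genes described here encode transcription factors that act in the lateral ganglionic eminence and in the striatal projection neurons that arise from it: Foxp1, Foxp2, Meis1, Meis2, Pbx3, Ebf1, Isl1, Six3, Zfp503 and Zfp521. They were read on all probe sets that the array's annotation assigns to 1 of these symbols, 37 of 45037 probe sets in all, and 0 probe sets were listed under an older name. Foxp1 had 8 probe sets, Foxp2 6, Ebf1 5, Meis2 4, Meis1 and Six3 3 each, and Pbx3, Isl1, Zfp503 and Zfp521 2 each. RNA was measured on Affymetrix arrays, 1 per animal, from 4 Ctip2 null mutant, 1 Ctip2 heterozygote and 3 wild type mice of strain BALB/c at postnatal day 0. Tissue came from a punch 500 µm across, taken at the centre of the striatum in coronal slices of 300 µm. Such a punch holds every cell of the region, and the sources used here do not say which part of the Ctip2 gene the mutant lacks. Ctip2 is listed under its current symbol Bcl11b.

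The striatum is built mainly of GABAergic projection neurons, also called medium spiny neurons, which are born in the lateral ganglionic eminence of the embryonic forebrain. They form a direct and an indirect output pathway, and sets of transcription factors mark the way from progenitor to each neuron type. Isl1 and Ebf1 are known for the direct pathway, Six3 for the indirect pathway, and Foxp1, Foxp2, Meis2, Pbx3 and Zfp503 for projection neurons or their precursors more widely. Ctip2 is itself a zinc finger transcription factor of these neurons, and the comparison asks how striatal genes differ when it is missing.

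Each value is the log2 of a probe set's expression, so that a difference of 1 stands for a factor of 2. Array medians lay between 6.21 and 6.35, and the SD of the values differed between arrays, from 1.90 to 2.05 in null, 2.06 in the heterozygote and 1.84 to 1.97 in wild type arrays. Bcl11b, the mutated gene, read 11.03 to 11.47 in null, 12.43 in the heterozygote and 12.00 to 12.45 in wild type arrays on its brightest probe set, so signal remained in every null animal. Ttr, the defining transcript of the choroid plexus beside the striatum, ranged from 7.11 to 13.44 in null and from 9.38 to 13.34 in wild type arrays and was highest in null 2 and wild type 1. Xist, the female-specific transcript, was high in null 3 and in wild type 1 and 2. Precision is limited by how few animals there are.

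Of the 10 factors 6 had at least 1 probe set that was higher in null than in wild type striatum, and 0 had one that was lower. Of the 37 probe sets 11 were higher, 0 were lower and 26 did not pass (limma, adjusted p under 0.05 over all probe sets). Over all 45037 probe sets 2.32% passed, 1.87% higher and 0.453% lower. The 11 belong to 6 genes, namely Zfp503 (2 of 2), Zfp521 (2 of 2), Pbx3 (2 of 2), Ebf1 (3 of 5), Six3 (1 of 3) and Meis2 (1 of 4). Probe sets of Foxp1, Foxp2, Meis1 and Isl1 did not pass. A gene with more probe sets has more chances of a call. By the brightest probe set of each gene, with p adjusted over 18193 genes, 4 of the 10 rose and 0 fell, where 2.86% and 0.786% of all genes did. Probe sets of 1 gene share a transcript and are not independent of each other, and in whole tissue more cells of a type and more RNA per cell cannot be told apart. All 4 null arrays lay above all 3 wild type arrays on 19 of the 37, and below them on 0, where 7.7% and 8.85% of all probe sets did so. At an unadjusted p under 0.05, 21 were higher and 0 lower, where 10.9% and 8.74% of all probe sets were. The median difference was 0.51 over the 37 probe sets and -0.08 over all probe sets. Most members are bright, and 33 of the 37 stayed when the dimmer probe sets of the array were left out. Of these 33, 12 were higher, where 4.07% of all bright probe sets were, and the median over all bright probe sets was 0.01.

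The count of 11 depended on which arrays were used, as did the count over all probe sets. It was 7, 6, 7 and 7 without wild type 2, wild type 3, null 1 or null 2, 7 with the SD of each array as a covariate, 5 with wild type 1 and null 2, the highest in Ttr, both left out, and 1 when the heterozygote joined the controls. The share of all probe sets that were higher was 0.613%, 0.466%, 0.719% and 0.626% without those single arrays, 0.420% with the SD covariate, 0.915% without both highest Ttr arrays and 0.244% with the heterozygote as a control. All 11 differences stayed positive under each of these settings, and 6 of them, from Six3, Zfp503, Zfp521 and Ebf1, were called whichever array was left out.

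**Figure D1:**
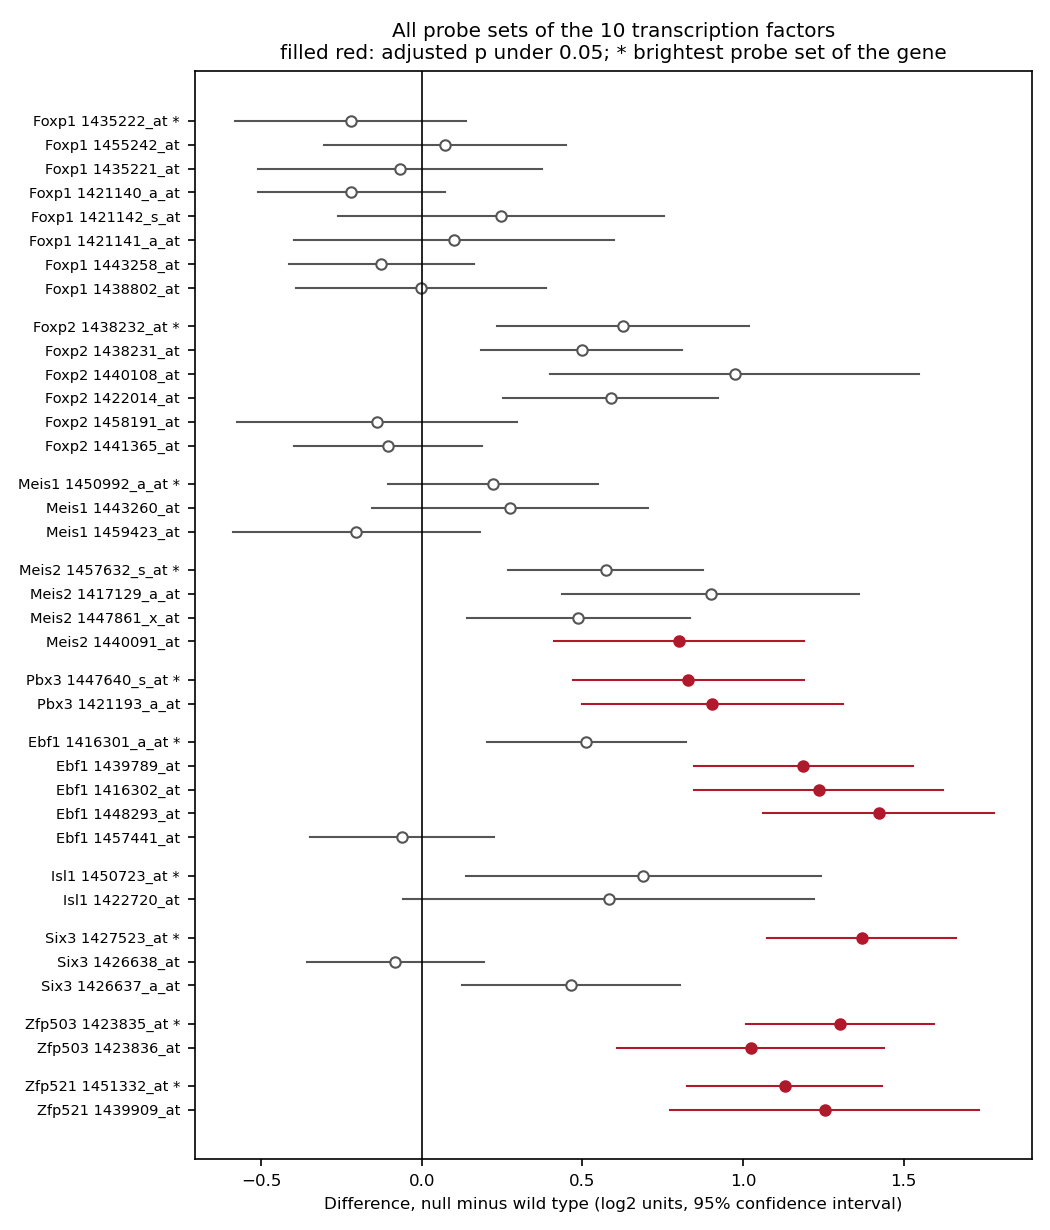
Difference in log2 expression, null minus wild type, for all 37 probe sets of the 10 factors, with 95% confidence intervals from limma. Filled red points passed an adjusted p of 0.05, and the 11 that did are all to the right of 0, while the 8 Foxp1 probe sets lie close to it.

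Promoter sequence came from the RefSeq promoter table of GRCm38.p6, of which 7 of the 10 genes had 1 or more entries used here. Zfp521 was not included in this step, though it had a call that held whichever array was left out. The sequences of the risen genes Six3, Zfp503 and Ebf1 are shown because these genes have such a call and an entry used here. Each sequence covers 250 bases before and 50 after the annotated start. They were searched on both strands for 6 short motifs: TAATTA, the core of many homeodomain sites; TGACAG, bound by Meis proteins; TGATTGA, bound by Pbx proteins; GTAAACA, bound by forkhead proteins; the palindromic site of Ebf proteins; and TGACCA, reported for Bcl11a, the paralogue of Bcl11b. Matches are in capitals, each sequence runs 5′ to 3′ on the strand of its gene, and no match overlaps another.
Six3 (chr17:85620584-85620883, + strand): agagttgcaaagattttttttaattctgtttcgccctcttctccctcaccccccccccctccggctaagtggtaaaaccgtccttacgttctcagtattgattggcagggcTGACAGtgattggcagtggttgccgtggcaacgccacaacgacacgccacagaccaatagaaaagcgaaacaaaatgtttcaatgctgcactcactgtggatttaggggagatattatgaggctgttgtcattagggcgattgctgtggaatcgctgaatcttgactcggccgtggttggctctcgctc
Zfp503 (chr14:21989552-21989851, - strand): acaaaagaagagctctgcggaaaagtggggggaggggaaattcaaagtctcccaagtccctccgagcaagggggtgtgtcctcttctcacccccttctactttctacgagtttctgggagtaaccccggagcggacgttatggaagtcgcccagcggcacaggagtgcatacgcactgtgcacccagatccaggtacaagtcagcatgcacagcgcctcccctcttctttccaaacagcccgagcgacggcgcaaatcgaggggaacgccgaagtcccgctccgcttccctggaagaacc
Ebf1 (chr11:44617850-44618149, + strand): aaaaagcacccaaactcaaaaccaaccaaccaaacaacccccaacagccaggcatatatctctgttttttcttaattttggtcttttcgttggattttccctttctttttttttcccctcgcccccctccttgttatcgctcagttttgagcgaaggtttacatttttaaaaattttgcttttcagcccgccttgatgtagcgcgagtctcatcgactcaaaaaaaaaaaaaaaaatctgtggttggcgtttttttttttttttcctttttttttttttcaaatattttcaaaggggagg
Six3 held 1 match, TGACAG at position -139 from its start, a motif present in 19.2% of all 32851 promoter windows of the table. Zfp503 and Ebf1 held 0 matches to the 6 motifs, as did the second Ebf1 entry and the entry of Meis2, which is not shown. TAATTA occurs in 5.29% of all windows, TGATTGA in 2.70%, GTAAACA in 3.65%, the Ebf palindrome in 0.904% and TGACCA in 13.6%. The windows had a GC content of 50% for Six3, 58.3% for Zfp503 and 36.7% for Ebf1, where the median window has 52.7%. A match describes these letters only, and no match says only that they are not in this window.

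Six3, a homeobox factor of the forebrain and eye that in mice is required for indirect pathway neurons, had the smallest p of the 37 probe sets. On its brightest probe set, 1427523_at, it read 9.16, 8.94, 9.02 and 9.19 in null 1 to 4, against 7.65, 7.91 and 7.56 in wild type 1 to 3. Every null array was well above every wild type array. The means were 9.08 ± 0.12 (SD, n = 4) in null striatum and 7.71 ± 0.18 (SD, n = 3) in wild type striatum, a difference of 1.37 ± 0.13 (SE) or 2.58-fold (adjusted p = 0.00160). The other Six3 probe sets were dimmer, with means near the array median. Of these, 1426637_a_at read 6.75, 6.66, 6.17 and 6.45 in null 1 to 4, against 6.04, 6.09 and 6.004 in wild type 1 to 3, with all null arrays above all wild type arrays, and did not pass (difference 0.46, adjusted p = 0.152). The last, 1426638_at, differed by -0.08 (95% interval -0.36 to 0.19, adjusted p = 0.692), so the rise is measured on 1 of 3 probe sets.

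Zfp503 and Zfp521, zinc finger proteins, rose on both of their probe sets. Zfp503, also called Nolz1, is a repressor that appears as lateral eminence cells leave the cell cycle and enter the striatum. Its brightest probe set, 1423835_at, read 10.62, 10.65, 10.46 and 10.51 in null 1 to 4, against 9.37, 9.03 and 9.37 in wild type 1 to 3, a difference of 1.30 ± 0.13 (SE) or 2.47-fold (adjusted p = 0.00189). The null arrays lay within a narrow span, far above the wild type arrays. On 1423836_at Zfp503 read 9.65, 9.76, 9.30 and 9.52 in null 1 to 4, against 8.39, 8.95 and 8.25 in wild type 1 to 3, with wild type 2 the closest to the null arrays, and rose 2.03-fold (adjusted p = 0.0238). The call on 1423836_at was lost without wild type 3 (adjusted p = 0.110), null 1 (0.0746) or null 2 (0.0823), with quantile normalization (0.101) and with the array SD as a covariate (0.0853).

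Zfp521, known in other tissues as a protein that binds Ebf1 and restrains it, had the tightest wild type values of the called probe sets. On 1451332_at it read 10.74, 10.93, 11.09 and 10.64 in null 1 to 4, against 9.70, 9.70 and 9.77 in wild type 1 to 3, so that the wild type arrays lay almost on 1 value and the null arrays all stood above it. The means were 10.85 ± 0.20 (SD, n = 4) in null striatum and 9.72 ± 0.04 (SD, n = 3) in wild type striatum, 2.19-fold higher (adjusted p = 0.00455). On the dimmer 1439909_at Zfp521 read 8.95, 9.18, 9.68 and 8.72 in null 1 to 4, against 7.84, 7.69 and 8.11 in wild type 1 to 3 and rose 2.39-fold (adjusted p = 0.0190), with null 3 the highest. The call on 1439909_at was lost without wild type 2 (adjusted p = 0.0883), wild type 3 (0.0586) or null 2 (0.0656), and with the array SD as a covariate (0.132).

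**Figure D2:**
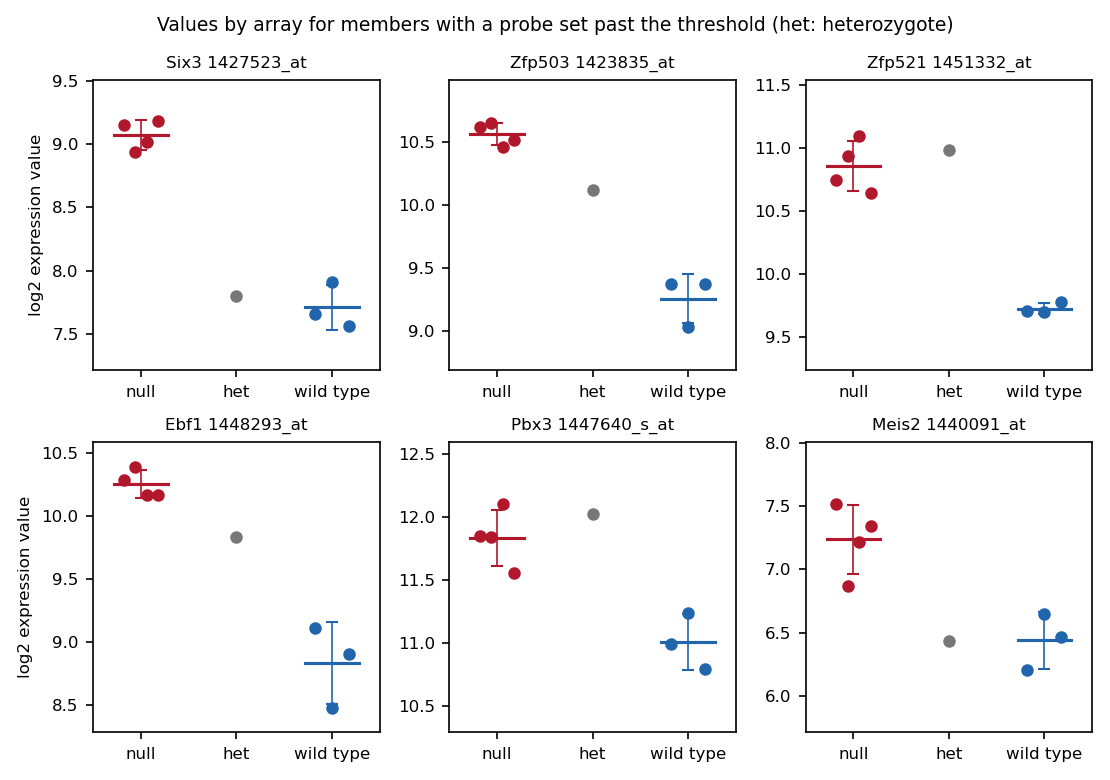
Log2 expression by array for 6 probe sets past the threshold, 1 for each gene that has any, in null (red), heterozygote (grey) and wild type (blue) striatum; bars are means and SDs, and each panel spans the same number of log2 units. The null arrays lie above the wild type arrays in all 6 panels. The heterozygote stands with the wild type arrays on Six3 (7.80) and on this dimmest Meis2 probe set (6.43). On the other Meis2 probe sets, not shown in this figure, it was above every wild type array. It stands among the null arrays on Zfp521 (10.98) and Pbx3 (12.02).

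Ebf1, a helix-loop-helix factor that direct pathway neurons need for their differentiation, rose on 3 of 5 probe sets and missed the threshold on its brightest. On 1448293_at it read 10.29, 10.39, 10.17 and 10.16 in null 1 to 4, against 9.11, 8.47 and 8.90 in wild type 1 to 3, a difference of 1.42 ± 0.16 (SE) or 2.68-fold (adjusted p = 0.00330), the largest difference among the 37. Wild type and null arrays were far apart. On 1416302_at Ebf1 read 10.83, 11.08, 11.12 and 10.44 in null 1 to 4, against 9.65, 9.52 and 9.73 in wild type 1 to 3 and rose 2.35-fold (adjusted p = 0.00852). On 1439789_at it read 11.38, 11.61, 11.63 and 11.17 in null 1 to 4, against 10.34, 10.06 and 10.39 in wild type 1 to 3 and rose 2.28-fold (adjusted p = 0.00583). On these 3 probe sets no null array came near a wild type array. The brightest probe set, 1416301_a_at, carries the suffix for alternative transcripts of 1 gene. On it Ebf1 read 11.87, 11.81, 11.49 and 11.67 in null 1 to 4, against 11.10, 11.12 and 11.37 in wild type 1 to 3, a difference of 0.51 with a 95% interval of 0.20 to 0.82 (adjusted p = 0.0939). Null and wild type arrays did not overlap there either, though null 3 and wild type 3 were close. The dim 1457441_at, below the array medians, differed by -0.06 (-0.35 to 0.23, adjusted p = 0.783). A gene-wide test that takes only the brightest probe set therefore gave an adjusted p of 0.0827 for Ebf1, and one on the mean of its probe sets gave a difference of 0.86 with an adjusted p of 0.0042.

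Isl1, a LIM-homeodomain factor of direct pathway neurons and of cholinergic interneurons, did not pass on either of its probe sets. On 1450723_at it read 10.91, 11.35, 11.31 and 10.62 in null 1 to 4, against 10.76, 9.82 and 10.50 in wild type 1 to 3, a difference of 0.69 with a 95% interval of 0.14 to 1.24 (adjusted p = 0.183). Null 4 lay below wild type 1, and wild type 2 was lowest. On 1422720_at Isl1 read 10.77, 11.07, 10.64 and 9.91 in null 1 to 4, against 10.06, 9.52 and 10.47 in wild type 1 to 3, with null 4 low again and below both wild type 1 and wild type 3, and differed by 0.58 (-0.06 to 1.22, adjusted p = 0.286). Null 4 and wild type 2 are the arrays of smallest SD in their groups, at 1.90 and 1.84. With the array SD as a covariate the Isl1 differences were 0.20 on each probe set. The array SD also differed between the groups, at 1.90 to 2.05 in null and 1.84 to 1.97 in wild type arrays. The parts of array SD and of genotype in the Isl1 values were not tested. Of the markers of cholinergic interneurons, which also use Isl1, 0 of 5 measured genes passed, and 4 of the 5, Chat, Slc18a3, Slc5a7 and Gbx2, were below the median level of all probe sets. The largest differences of that list were 1.34 (adjusted p = 0.111) for Lhx8 and -0.24 (adjusted p = 0.345) for Gbx2. The mean level of that list was 5.63 to 5.82 in null, 6.20 in the heterozygote and 5.31 to 5.92 in wild type arrays.

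Pbx3, Meis1 and Meis2 belong to the TALE homeodomain class, whose Meis and Pbx proteins bind DNA as pairs. Of the 3, Pbx3 rose on both of its probe sets. On 1447640_s_at it read 11.84, 11.84, 12.10 and 11.56 in null 1 to 4, against 10.99, 11.24 and 10.79 in wild type 1 to 3, with means of 11.84 ± 0.22 (SD, n = 4) in null striatum and 11.01 ± 0.22 (SD, n = 3) in wild type striatum, 1.78-fold higher (adjusted p = 0.0308). The lowest null array, null 4, was still above the highest wild type array, wild type 2. On 1421193_a_at Pbx3 read 10.77, 10.94, 11.04 and 10.37 in null 1 to 4, against 9.72, 10.13 and 9.78 in wild type 1 to 3 and rose 1.87-fold (adjusted p = 0.0354). The Pbx3 calls were the least stable of those on a gene's brightest probe set: 1447640_s_at lost its call without wild type 2 or 3 or null 1, 2 or 3 (adjusted p up to 0.134) and with the array SD as a covariate (0.185). The other, 1421193_a_at, was called in 1 of 7 fits that left out an array, that without null 4 (adjusted p up to 0.142), and lost its call under quantile normalization (0.0664), with each array set to its own median (0.0582) and with the SD covariate (0.224).

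Meis2, a factor of striatal and olfactory bulb neurons of the lateral eminence, was above wild type in every null array on all 4 of its probe sets, and 1 of the 4 passed. The one that passed, 1440091_at, is the dimmest. On it Meis2 read 7.52, 6.87, 7.22 and 7.34 in null 1 to 4, against 6.20, 6.65 and 6.47 in wild type 1 to 3 and rose 1.74-fold (adjusted p = 0.0478), with null 2 closest to the wild type arrays. The call was lost without any 1 of the arrays except null 2 (adjusted p up to 0.150). On 1417129_a_at Meis2 read 12.15, 12.14, 12.50 and 11.89 in null 1 to 4, against 11.63, 10.82 and 11.36 in wild type 1 to 3, a difference of 0.90 (95% interval 0.44 to 1.36, adjusted p = 0.0571). On the brightest, 1457632_s_at, it read 12.26, 12.08, 11.99 and 12.09 in null 1 to 4, against 11.75, 11.34 and 11.50 in wild type 1 to 3, a difference of 0.57 (0.27 to 0.88, adjusted p = 0.0633). The remaining probe set, 1447861_x_at, whose suffix marks probes that may match other transcripts, differed by 0.49 (adjusted p = 0.146). With single arrays left out the adjusted p ranged from 0.0286 to 0.179 for 1417129_a_at, called without wild type 1 or null 4, and from 0.0319 to 0.221 for 1457632_s_at, called without wild type 1. With the array SD as a covariate 1417129_a_at differed by 0.54 (adjusted p = 0.286).

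Meis1, the close relative of Meis2, did not pass on any of its 3 probe sets. On the brightest, 1450992_a_at, it read 8.99, 9.03, 9.39 and 8.83 in null 1 to 4, against 8.80, 8.90 and 8.81 in wild type 1 to 3, a difference of 0.22 with a 95% interval of -0.11 to 0.55 (adjusted p = 0.391). Wild type arrays were close together and null 4 lay among them. The dimmer 1443260_at and 1459423_at differed by 0.27 and -0.20 (adjusted p = 0.413 and 0.490). Whether Meis1 and Meis2 differ in response was not tested.

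Foxp1, a forkhead repressor found in projection neurons of both pathways, did not pass on any of 8 probe sets. On the brightest, 1435222_at, it read 12.31, 12.13, 11.73 and 12.30 in null 1 to 4, against 12.42, 12.22 and 12.38 in wild type 1 to 3, with null 3 below the rest. The difference was -0.22 with a 95% interval of -0.58 to 0.14 (adjusted p = 0.428). The other 7 differed by between -0.22 and 0.25, with 4 below 0 and 3 above, and the null and wild type arrays overlapped on all 8. The highest upper bound of the 8 intervals was 0.75, on the dimmer 1421142_s_at, and the lowest lower bound was -0.58, on 1435222_at.

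Foxp2, the relative of Foxp1 known for its role in human speech and prominent in direct pathway neurons, read higher in null arrays on 4 of 6 probe sets without passing. On the brightest, 1438232_at, it read 10.64, 10.58, 10.53 and 10.65 in null 1 to 4, against 10.40, 9.60 and 9.92 in wild type 1 to 3, a difference of 0.63 with a 95% interval of 0.23 to 1.02 (adjusted p = 0.105). The null arrays lay close together, and wild type 1 came near them while wild type 2 was far below. On 1440108_at Foxp2 read 9.83, 9.72, 10.02 and 9.27 in null 1 to 4, against 9.38, 8.37 and 8.46 in wild type 1 to 3, a difference of 0.97 (0.40 to 1.55, adjusted p = 0.0876), and null 4 lay below wild type 1. On 1438231_at and 1422014_at the differences were 0.50 and 0.59 (adjusted p = 0.105 and 0.0791), with no overlap of the groups. The unadjusted p of these 4 lay between 0.0030 and 0.0053. With single arrays left out the adjusted p ranged from 0.0174 to 0.315 for 1438232_at, from 0.0153 to 0.300 for 1440108_at, from 0.0334 to 0.269 for 1422014_at and from 0.0536 to 0.325 for 1438231_at. The lowest of each was without wild type 1 and the highest without wild type 2. Leaving out null 4 also called 1440108_at (0.0421), and with the array SD as a covariate 1440108_at differed by 0.47 (0.417). The remaining probe sets, 1458191_at and 1441365_at, differed by -0.14 and -0.10 (adjusted p = 0.676 and 0.637), and 1441365_at is among the dimmest on the array.

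**Figure D3:**
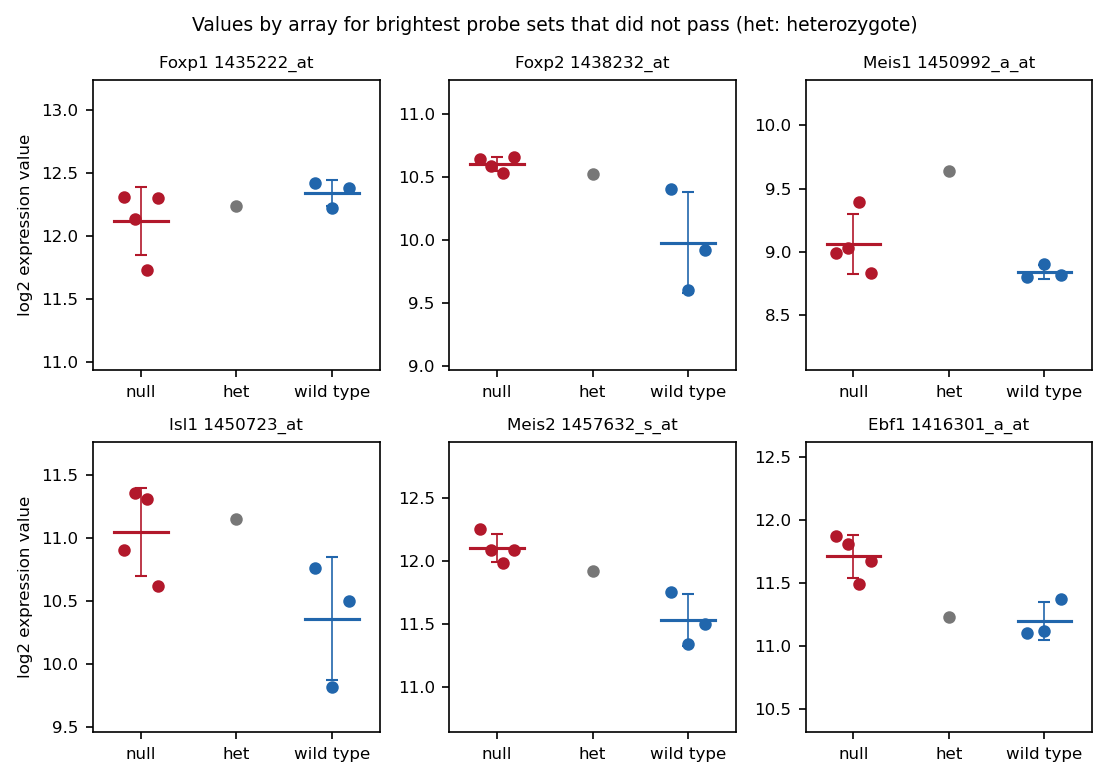
Log2 expression by array for the brightest probe sets of Foxp1, Foxp2, Meis1, Isl1, Meis2 and Ebf1, none of which passed, in null (red), heterozygote (grey) and wild type (blue) striatum; bars are means and SDs, and each panel spans the same number of log2 units. Null and wild type arrays overlap on Foxp1, Meis1 and Isl1, and lie apart but close on Foxp2, Meis2 and Ebf1.

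The heterozygote, a single animal with no replicate, stood near wild type on some of these factors and near null on others. On the 11 called probe sets it lay past the midpoint from the wild type to the null mean on 8 (72.7%), against 78.1% of all 840 probe sets called higher, so the members were close to the rest of the array in this. Six3 on 1427523_at read 7.80 in the heterozygote, within the wild type range, and Meis2 on 1440091_at read 6.43, also within it. On the other Meis2 probe sets, 1457632_s_at, 1417129_a_at and 1447861_x_at, the heterozygote read 11.92, 12.14 and 9.61, above every wild type array. Zfp503 read 10.12 on 1423835_at, between the groups, and Ebf1 read 9.83 on 1448293_at, nearer to the null arrays. Zfp521 on 1451332_at and Pbx3 on 1447640_s_at read 10.98 and 12.02, above the null means of 10.85 and 11.84. The heterozygote also exceeded every wild type and null array on some probe sets that did not pass, among them those of Meis1, at 9.64 on 1450992_a_at, and Foxp1, at 12.26 on 1455242_at. It was above all wild type arrays on 23 of the 37 and below them on 5, where 27.4% and 43.7% of all probe sets were. The heterozygote array had the widest spread of values, with an SD of 2.06 against 1.84 to 1.97 in wild type arrays. Most members are bright, so these shares over bright and dim probe sets together are not a like comparison. Whether the members differ from other bright probe sets in this was not tested. When this array joined the controls, the call of 1 of the 11 probe sets remained, Six3 on 1427523_at (adjusted p = 0.00160).

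**Figure D4:**
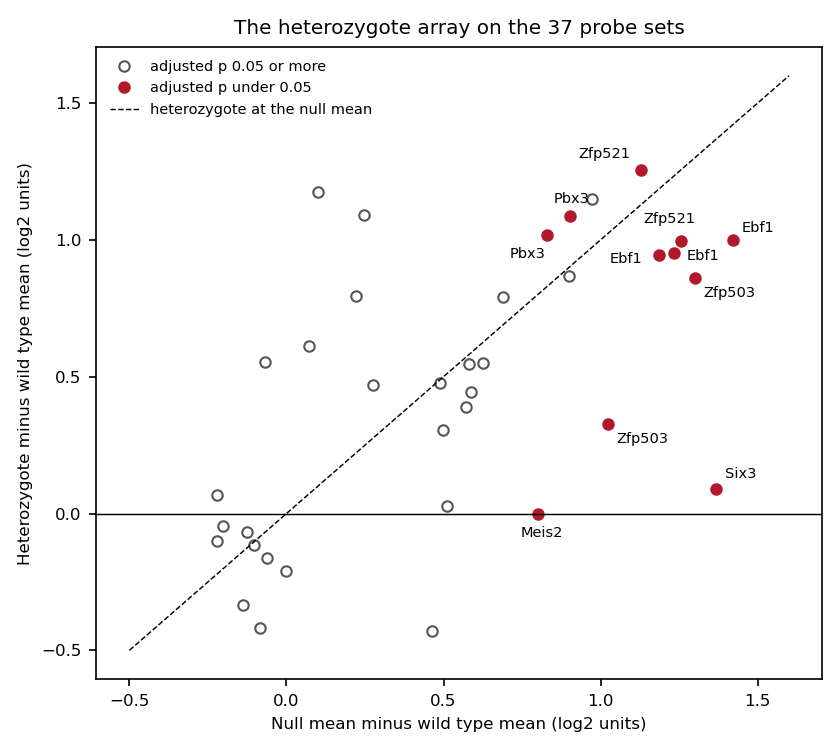
Each of the 37 probe sets by its null mean minus its wild type mean and by the heterozygote value minus the wild type mean, both in log2 units. Points on the dashed line have the heterozygote at the null mean, and points on the horizontal line have it at the wild type mean; Six3 and 1 Meis2 probe set lie near the horizontal line among the called probe sets (filled red), and Zfp521 and Pbx3 near or above the dashed line.

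Most relatives of these factors in the same protein families did not pass. Of 15 measured relatives, with 1 probe set per gene and p adjusted over 18193 genes, 1 rose, 0 fell and 14 did not pass, where 2.86% of all genes rose and 0.786% fell. The median difference was -0.10, against -0.08 over all genes and 0.66 over the 10 members' brightest probe sets, of which 4 rose. Foxp4, a forkhead relative of Foxp1 and Foxp2, was the gene that rose, 1.83-fold (adjusted p = 0.0148), with 8.60 ± 0.24 (SD, n = 4) in null and 7.73 ± 0.08 (SD, n = 3) in wild type striatum. Zfp423, the relative of Zfp521 and also a partner of Ebf proteins, differed by 0.87 (adjusted p = 0.192). Ebf2, Ebf3 and Ebf4 differed by -0.09, -0.08 and 0.16, and Zfp703, the relative of Zfp503, by -0.13 (adjusted p = 0.615). Of the 15 relatives 8, namely Foxp3, Pbx4, Ebf2, Ebf3, Ebf4, Six2, Six4 and Six6, were below the median level of all probe sets, where 0 of the 10 members' brightest probe sets were, so the members and relatives are not at like levels.

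Among 7 binding partners and cofactors of TALE and LIM-homeodomain proteins 1 rose, 0 fell and 6 did not pass, with a median difference of 0.57. Pknox2, a TALE protein that pairs with Pbx, rose 1.77-fold (adjusted p = 0.0239), with 8.12 ± 0.28 (SD, n = 4) in null and 7.29 ± 0.05 (SD, n = 3) in wild type striatum. Its relative Pknox1 differed by 0.57 (adjusted p = 0.114). Lhx8, a partner of Isl1 in cholinergic neurons, had the largest difference of the list, 1.34 (adjusted p = 0.111), with 9.22 ± 0.42 (SD, n = 4) in null and 7.87 ± 1.04 (SD, n = 3) in wild type striatum, and null and wild type arrays overlapped. Ldb1 and Ldb2, the cofactors of Isl1, differed by -0.19 and -0.33.

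Of 16 other transcription factors of the lateral eminence and projection neurons 3 rose, 0 fell and 13 did not pass, with a median difference of 0.10. Tshz2 and Tshz1, teashirt zinc finger proteins, rose 2.97-fold and 2.13-fold (adjusted p = 0.00520 and 0.0204), and Id4, an inhibitor of helix-loop-helix factors, rose 2.43-fold (adjusted p = 0.00581). The early eminence factors Gsx1 and Gsx2 differed by -0.07 and -0.30. Mn1, a transcriptional coregulator gene, had 11.38 ± 0.30 (SD, n = 4) in null and 10.58 ± 0.39 (SD, n = 3) in wild type striatum, a difference of 0.80 (adjusted p = 0.0755), and Bcl11a, the paralogue of Bcl11b, differed by 0.43 (adjusted p = 0.0900). The nuclear receptor gene Rxrg had 9.59 ± 0.33 (SD, n = 4) in null and 10.39 ± 0.21 (SD, n = 3) in wild type striatum, a difference of -0.79 (adjusted p = 0.0538). Null and wild type arrays did not overlap on Mn1, Bcl11a or Rxrg.

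Most genes that carry out the work of these neurons did not pass, and of those that did, most fell. Of 8 direct pathway genes 0 rose and 1 fell, Drd1, which encodes the dopamine receptor of these neurons, 1.91-fold lower (adjusted p = 0.0346). The median difference was -0.46, with 4 of the 8 genes below the median level of all probe sets, among them Chrm4 and Eya1, whose values set that median. Gnb4, a G protein subunit gene, differed by -0.996 (adjusted p = 0.0518). Of the 8 genes 6 were below 0 and 2 above, Tac1 by 0.14 (adjusted p = 0.600) and Sfxn1 by 0.53 (adjusted p = 0.213). Of 6 indirect pathway genes 0 rose and 1 fell, the receptor gene Gpr6, 4.48-fold lower (adjusted p = 0.0335), and the others differed by -0.26 to 0.21, with Grik3 at -0.26 (adjusted p = 0.340). Of 8 genes listed as markers of projection neurons, other than the mutated gene, 1 rose and 4 fell, with a median difference of -0.66. The 1 that rose was Gad1 (2.67-fold). The 4 that fell were Arpp21 (3.63-fold), Gng7 (3.10-fold), Ppp1r1b (2.46-fold) and Pde10a (2.06-fold). The other 3 did not pass, Gad2 at 0.73 (adjusted p = 0.0524), Adcy5 at 0.30 (adjusted p = 0.322) and Rgs9 at -0.28 (adjusted p = 0.261). Gad1 and Gad2 serve other GABAergic cells too and do not single out projection neurons, though both count in this list and its median. With Bcl11b, the mutated gene itself (2.16-fold lower), the median is -1.04.

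**Figure D5:**
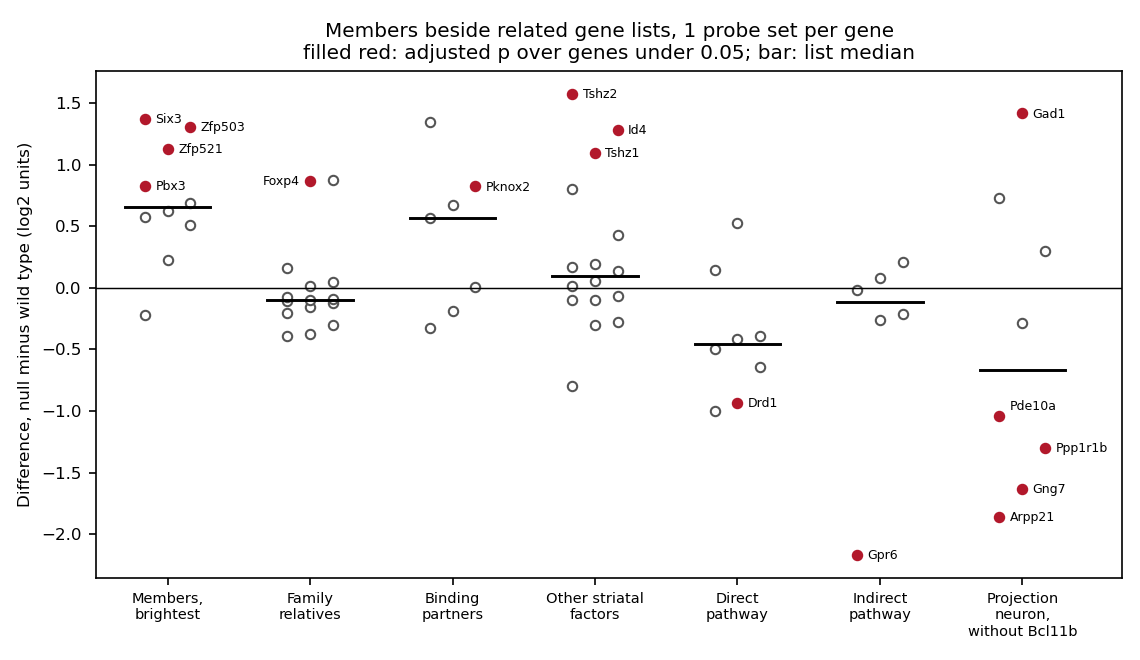
Difference in log2 expression, null minus wild type, with 1 probe set per gene, for the 10 members and for lists of family relatives, binding partners, other striatal factors, direct and indirect pathway genes and projection neuron markers. Filled red points passed an adjusted p of 0.05 over all genes and bars are medians, at 0.66 for the members, -0.10 for the relatives and -0.66 for the projection neuron markers without Bcl11b.

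Markers of other cells that use some of these factors were measured beside them, and their part in the results was not tested. Of 7 genes listed for the dorsal eminence and olfactory bulb interneurons, which also use Meis2 and Pbx3, 5 rose and 0 fell. These were Dlx1 3.53-fold, Calb2 2.86-fold, Dlx2 2.84-fold, Th 2.63-fold and Tshz1. Dlx1 and Dlx2 are used across the ganglionic eminences, so they do not single out this lineage. The mean level of the 7 was 7.48 to 7.84 in null, 7.34 in the heterozygote and 6.59 to 6.63 in wild type arrays. Sp8, a defining factor of that lineage, was far below the array medians, at 4.09 in null and 3.95 in wild type striatum. Pax6 was the 1 marker of the 7 below 0, at -0.30 (adjusted p = 0.284). Of 6 cortical neuron markers, whose cells also use Foxp1, Foxp2 and Meis2, 0 passed, with a mean level of 5.10 to 5.27 in null, 4.97 in the heterozygote and 5.32 to 5.35 in wild type arrays. Tbr1 and Neurod6 were among the dimmest probe sets, at 3.13 and 3.71 in null and 3.14 and 3.68 in wild type striatum. Emx1 and Fezf2 had the largest differences of that list, -0.28 (adjusted p = 0.276) and -0.25 (adjusted p = 0.306). Of 8 progenitor markers 1 rose, Sox2 (1.61-fold), while Hes5 differed by 0.51 (adjusted p = 0.240). Of these 8 markers 3 were above 0 and 5 below, with a median difference of -0.10, and Gsx2 was at -0.30 (adjusted p = 0.363). Of 5 medial eminence markers 1 rose, Lhx6 (2.09-fold), with Npy at -0.65 (adjusted p = 0.113).

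Of the remaining markers 1 passed. Of 6 choroid plexus and 7 glial markers 0 passed, with the largest differences at Ttr, -1.39 (adjusted p = 0.536), Folr1, -0.42 (adjusted p = 0.337), Gfap, -0.25 (adjusted p = 0.313), and Aqp4, -0.20 (adjusted p = 0.424). Of 9 vascular, microglial and red cell markers 1 rose, C1qa (1.55-fold, adjusted p = 0.0495), and Csf1r and Tyrobp differed by 0.67 (adjusted p = 0.115) and 0.66 (adjusted p = 0.118). Of the choroid markers 4 of 6 were below the median level of all probe sets. The mean level of the choroid list was 5.76 to 7.37 in null, 5.65 in the heterozygote and 6.33 to 7.21 in wild type arrays, and with the highest Ttr array of each group left out, the Six3, Zfp503, Zfp521 and Ebf1 probe sets 1427523_at, 1423835_at, 1451332_at, 1448293_at and 1439789_at were called, with adjusted p values of 0.0231, 0.0236, 0.0444, 0.0222 and 0.0447.

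For the 6 factors with a called probe set, the genes whose pattern over the 8 arrays was most like that of the brightest probe set were sought among 9095 genes above the median level, by Pearson correlation. For Six3 these were Bnc2 (r = 0.99) and Nts (r = 0.98), for Zfp503 Dlx1 (r = 0.99) and Opcml (r = 0.99), for Zfp521 Rsu1 (r = 0.99) and Dync1i1 (r = 0.99), for Pbx3 Slc8a1 (r = 0.99) and Cdh4 (r = 0.99), for Meis2 Efnb2 (r = 0.99) and Id4 (r = 0.97) and for Ebf1 Baalc (r = 0.98) and Pyurf (r = 0.98). The 8 arrays share the contrast of null with wild type, so any gene with a clear difference between them correlates with these factors, and with so many genes searched values this high are a description only. Dlx1, the homeobox gene most like Zfp503, differed by 1.82 (adjusted p = 0.00102) and Id4, like Meis2, by 1.28 (adjusted p = 0.00581). For Ebf1 and Meis2 the brightest probe set, used in this search, was not one that passed. Baalc and Pyurf, the genes most like Ebf1, did not pass either, at 0.34 and 0.45 (adjusted p = 0.159 and 0.133).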

How the data were processed

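Total RNA from striatal punches of 8 mice was hybridised to Affymetrix arrays. The authors deposited a log2 value for each probe set and array, made with RMA, per the submitters' processing notes and the series' design text; the sources used here give neither its version nor any filter. RMA corrects background and summarises probes per probe set, and differences of very dim and very bright probe sets come out too small. Its usual quantile step gives arrays 1 distribution, but the deposited arrays differ in SD, so quantile normalization and the array SD as a covariate were tried.

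Probe sets were named through the array's annotation, with symbols updated by gene ID (assembly GRCm38.p6): of 45037 probe sets 34945 had 1 symbol, 932 several and 9160 none. Null and wild type arrays were compared with limma 3.58.1 in R 4.3.3 (lmFit and eBayes, 7 arrays, no covariate), with Benjamini-Hochberg adjustment over all probe sets for the members and over 18193 genes, each by its brightest probe set, for 14 gene lists, at a threshold of 0.05. The heterozygote was left out of this test. Named were all members, the list genes past the threshold or with the largest differences, and the genes of most similar pattern; other list genes named beside these were chosen after their values were seen. The members and lists were chosen with earlier results of these data known. P-values reflect only the spread between these animals. The fit was tested on simulated data. Alternatives covered the test, threshold, scaling, dim probe sets, covariates and arrays left out; the Xist covariate and the list without Bcl11b were chosen after seeing the data. Replicate numbers do not pair the animals. Figures were drawn with matplotlib 3.10.9.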

Additional observations from a re-analysis of the deposited data

Results flagged for a closer look

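In null 3, Foxp1 on 1435221_at read 11.75 and the nearest of the other null arrays 11.14, a gap of 0.943 of the group's range, above Dixon's 95% critical value for 4 arrays. In the same array Foxp2 on 1438231_at read 9.61, below the nearest null array at 9.89, a gap of 0.899 of the range. Chance gives such a gap in about 1 in 20 groups, and 37 probe sets were examined.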

How the results depend on the processing

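Of the 37 member probe sets 11 were higher and 0 lower. The number higher was 19 with array weights, 6 at an adjusted p under 0.01 and 1 with the heterozygote among the controls. It was 7 with the SD of each array as a covariate, 5 without wild type 1 and null 2, and 4 of 10 with 1 probe set per gene. At SAM d beyond 2, the cut named in the series' design text, 21 were higher. That cut was passed by 23% of all probe sets, higher and lower together. With single arrays left out the number higher ranged from 6 to 14. The number lower was 0 in every setting run. The share of all probe sets that were higher was 1.87% as reported, 5.96% with array weights, 0.422% at 0.01, 0.244% with the heterozygote among the controls, 0.420% with the SD covariate, 0.915% without wild type 1 and null 2, and 0.466% to 3.85% with single arrays left out, so it moved the same way. Of 110 listed genes 13 were higher and 7 lower, where 2.86% and 0.786% of all genes were, shares given for this fit only. The number higher was 20 with array weights, 5 at 0.01, 4 with the heterozygote among the controls, 5 with the SD covariate, 7 without wild type 1 and null 2, and 20 at SAM d beyond 2, with 6 to 13 for single arrays left out. The number lower was 11 with array weights, 3 at 0.01, 4 without wild type 1 and null 2, and 16 at SAM d beyond 2, with 3 to 8 for single arrays left out. Without Bcl11b, a choice made after seeing the data, 6 of 109 were lower. The cause of these shifts was not tested. Over single member probe sets and alternatives, 677 results kept their side of the threshold, 53 lost a call and 26 gained one. Of the 677, 646 kept their direction and 31, on 10 probe sets, changed sign without a call in either setting; the largest reported difference among these was 0.25 in size. A change of direction with a call was seen in 0 results.

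With the replicate number as a block, 12 member probe sets were higher and 0 lower, and 15 listed genes were higher and 8 lower. The numbers do not pair animals: deviations of equally numbered null and wild type arrays correlated at -0.25, -0.31 and -0.17, and null 4 has no partner. The arrays left out singly leave at least 2 wild type animals. Signal of probe sets below the array medians, such as 1457441_at of Ebf1, 1459423_at of Meis1 and 1441365_at of Foxp2, limits what they can show.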
